A study of Homo sapiens with 6 samples.

Results

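The genes described here encode laminin chains (LAMA2, LAMA4, LAMA5, LAMB1, LAMB2 and LAMC1), the nidogens NID1 and NID2, and the basement membrane proteoglycans perlecan (HSPG2) and agrin (AGRN). They were selected by symbol from a fixed list of names, and all 10 were found among the 60669 genes of the deposited table. RNA was sequenced from LX-2, an established human line with the features of activated hepatic stellate cells, the pericytes of the liver sinusoid that deposit scar matrix. The cells were labelled wild type and differed only in the small interfering RNA they received for 48 h. In 3 libraries this was siADAMTS12, 1 duplex against the secreted metalloprotease ADAMTS12, and in 3 libraries siCTL, a commercial negative control. The labels do not state separate cultures for the replicates. The p-values therefore reflect only how far these libraries vary among themselves, which may be technical. A response to this duplex cannot be told apart from a response to the loss of its target.

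Basement membranes are thin sheets of matrix on which cells rest. Their laminins are cross-shaped trimers of an alpha, a beta and a gamma chain. The short arms of the trimer polymerise with each other, the end of the alpha chain binds integrins and dystroglycan on the cell, and nidogen bound to the LAMC1 chain links the laminin sheet to type IV collagen. Perlecan and agrin carry heparan sulfate chains that retain growth factors. The healthy liver sinusoid lacks a continuous basement membrane, and stellate cells are a known source of its laminin and type IV collagen in fibrosis.

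With siADAMTS12, the nidogen NID2 was 2.60-fold higher than with siCTL, perlecan was 1.29-fold higher, the laminin chain LAMA4 was 1.65-fold lower and LAMC1 was 1.16-fold lower. The remaining 6 genes did not pass the test. LAMC1 passed in 5 of 13 other settings of the analysis, and LAMB1 and AGRN passed after quantile normalization and with equal totals. Levels below are the authors' normalized counts, which set genes on a common scale between libraries but not between genes. Fold changes are siADAMTS12 over siCTL on the log2(value + 1) scale with moderated standard errors (SE), and adjusted p-values come from limma fitted to all 15637 genes with a mean of at least 10. All 10 genes passed this filter. Of these, 2 were lower, where 15.5% of all tested genes were lower, and 2 were higher, where 11.5% of all tested genes were higher. The median log2 fold change was 0.04 over the 10 genes and 0.005 over all tested genes. In 4 of the 10 genes all siADAMTS12 libraries lay on one side of all siCTL libraries, as in 40.9% of all tested genes. The exact 2-sided permutation p of those 4 genes was 0.1, the smallest that 3 against 3 libraries allow.

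The duplex and its target come first because they check the labels and because the seed of the guide is searched for below. The sense strand, given in the labels, matched ADAMTS12 in coding exon 12 (GRCh38, chr5:33637728-33637746, minus strand). It is printed with the guide, its complement, both 5′ to 3′. Capitals mark guide positions 2 to 8, the seed with which a guide can also pair with 3′ UTRs of other transcripts, and the bases opposite them.
siADAMTS12 sense: gccaaaguuugGAGGGAAa
siADAMTS12 guide: uUUCCCUCcaaacuuuggc
ADAMTS12 stood at 4083, 3449 and 3687 in the siADAMTS12 libraries and at 13709, 12235 and 13423 in the siCTL libraries, with 28.5% of the siCTL mean left. The labels and the target's level therefore match in all 6 libraries.

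The 3′ UTR of 1 transcript per gene was searched for the complement of the seed. LAMC1 held the 7-base match GAGGGAA, which 15.7% of 12718 searched genes held. LAMA4 and HSPG2 held the 6-base match AGGGAA to guide positions 2 to 7 without the longer one, and 41.4% of searched genes held at least the 6 bases. No match was found in NID2, NID1, AGRN, LAMA2, LAMA5, LAMB1 or LAMB2. The sites in LAMC1, LAMA4 and HSPG2, 3 of the 10 genes, are printed with their surroundings (GENCODE 29 transcripts, GRCh38), the match in capitals.
LAMC1, chr1:183144025-183144054, plus strand: ctctaagtgtaGAGGGAAgacccttacgtg
LAMA4, chr6:112109057-112109086, minus strand: acctttcttccAGGGAAgataactttcaat
HSPG2, chr1:21822627-21822656, minus strand: caggggctgtaAGGGAAggcccaccccaac
LAMC1, with the 7-base match, was lower. Of the genes with only the 6-base match, LAMA4 was lower and HSPG2 was higher. Among all searched genes, 36.0% of those with the 7-base match were lower, against 21.7% of those with only the 6-base match and 12.0% of those with neither. In these classes 8.87%, 13.5% and 13.3% of genes were higher. The part of these matches in the values of LAMC1, LAMA4 and HSPG2 was not tested.

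**Figure D1:**
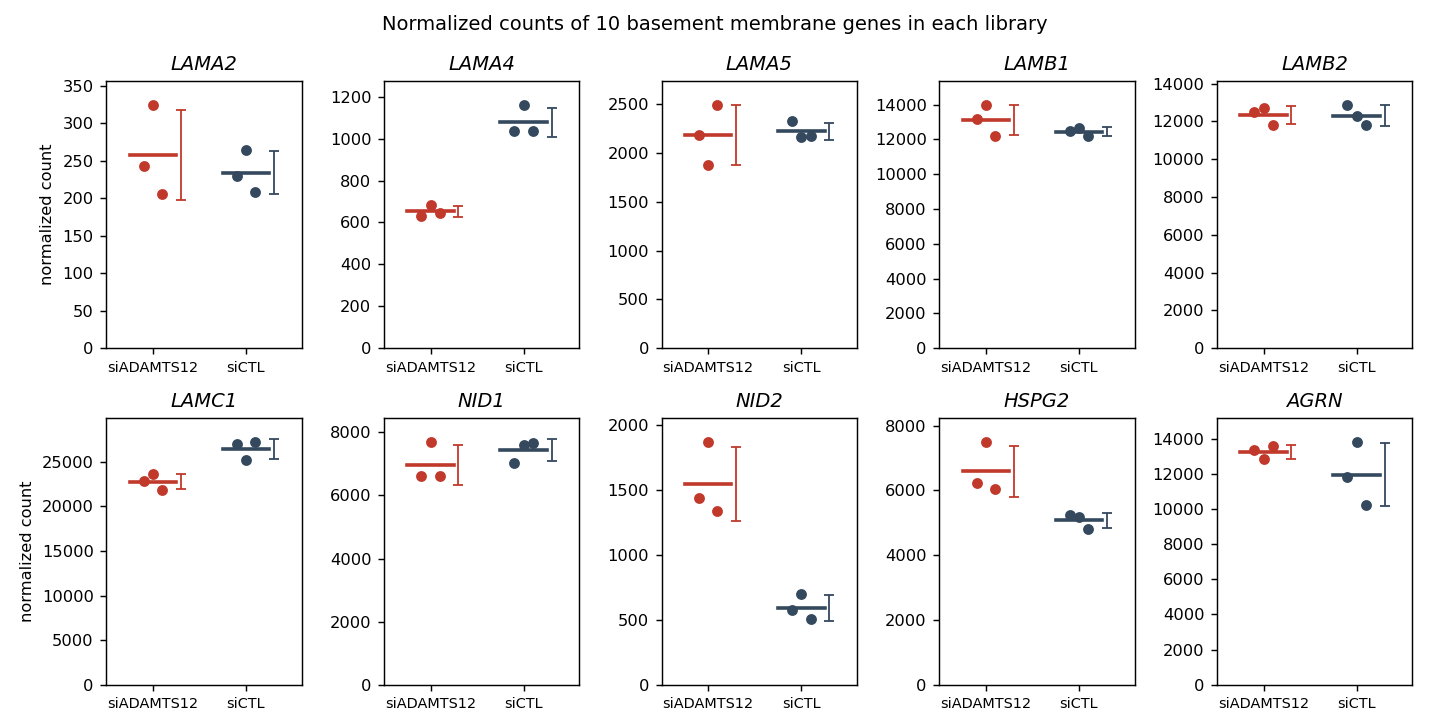
Normalized count of each of the 10 genes (vertical axes, each from 0) in the 3 siADAMTS12 libraries and the 3 siCTL libraries. Points are libraries, horizontal bars means and whiskers the SD; the groups stand apart in LAMA4, LAMC1, NID2 and HSPG2.

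The alpha chains carry the sites by which a laminin binds its receptors, and 3 of them belong to the set. LAMA4 (ENSG00000112769, chr6:112108760-112254939, minus strand) encodes a short alpha chain typical of mesenchymal and endothelial basement membranes. It had 629, 682 and 646 normalized counts in the siADAMTS12 libraries, against 1036, 1159 and 1038 in the siCTL libraries. Every siADAMTS12 library lay below every siCTL library. The mean was 652 ± 27.1 with siADAMTS12 and 1078 ± 70.4 with siCTL (SD, n = 3 each). The log2 fold change was -0.72 ± 0.08 (SE, adjusted p = 3.89e-05), and 648 of the tested genes, LAMA4 included, fell at least as far. In bulk RNA, fewer cells of a type and less RNA per cell cannot be told apart.

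LAMA2 (ENSG00000196569, chr6:128883141-129516569, plus strand), the alpha chain of muscle and nerve laminins, had the lowest values of the 10 genes, with 243, 324 and 206 normalized counts with siADAMTS12 and 230, 265 and 208 with siCTL. The groups overlapped. Its log2 fold change of 0.12 had a 95% interval from -0.23 to 0.47. LAMA5 (ENSG00000130702, chr20:62307955-62367312, minus strand), the alpha chain of most adult epithelial and vascular basement membranes, had 2183, 1876 and 2488 with siADAMTS12 and 2323, 2166 and 2171 with siCTL. Its siADAMTS12 libraries lay on both sides of the siCTL range, with a log2 fold change of -0.03 (95% interval -0.24 to 0.17).

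The beta chains and LAMC1 complete the trimers. LAMB1 (ENSG00000091136, chr7:107923799-108003255, minus strand), a widespread beta chain, had 13199, 13960 and 12201 normalized counts with siADAMTS12, against 12499, 12671 and 12184 with siCTL. LAMB2 (ENSG00000172037, chr3:49121114-49133118, minus strand), the beta chain of neuromuscular and glomerular laminins, had 12475, 12699 and 11831 with siADAMTS12, against 12847, 12289 and 11779 with siCTL. Both overlapped between the groups, and the 95% intervals of their log2 fold changes ran from -0.07 to 0.22 for LAMB1 and from -0.13 to 0.14 for LAMB2. These are the narrowest bounds on a change among the genes that did not pass. LAMB1 was past the threshold under both other scalings of the libraries, at a log2 fold change of 0.23 after quantile normalization (adjusted p = 0.0144) and 0.20 with equal totals (adjusted p = 0.0292).

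LAMC1 (ENSG00000135862, chr1:183023460-183145592, plus strand) encodes the gamma chain of most laminins, which holds the nidogen binding site. It had 22810, 23586 and 21870 normalized counts with siADAMTS12, against 27020, 25157 and 27202 with siCTL, with no overlap. The mean was 22755 ± 859 with siADAMTS12 and 26460 ± 1132 with siCTL (SD, n = 3 each). The log2 fold change of -0.22 ± 0.07 (SE) passed at an adjusted p of 0.0289. This call was lost when siADAMTS12 replicate 1 (adjusted p = 0.0674) or 3 (0.109), or siCTL replicate 1 (0.0904) or 3 (0.104), was left out, without the low-value filter (0.0644) and without the intensity trend (0.0660). After quantile normalization the log2 fold change was -0.02 (adjusted p = 0.833), and with equal totals it was -0.09 (0.259).

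**Figure D2:**
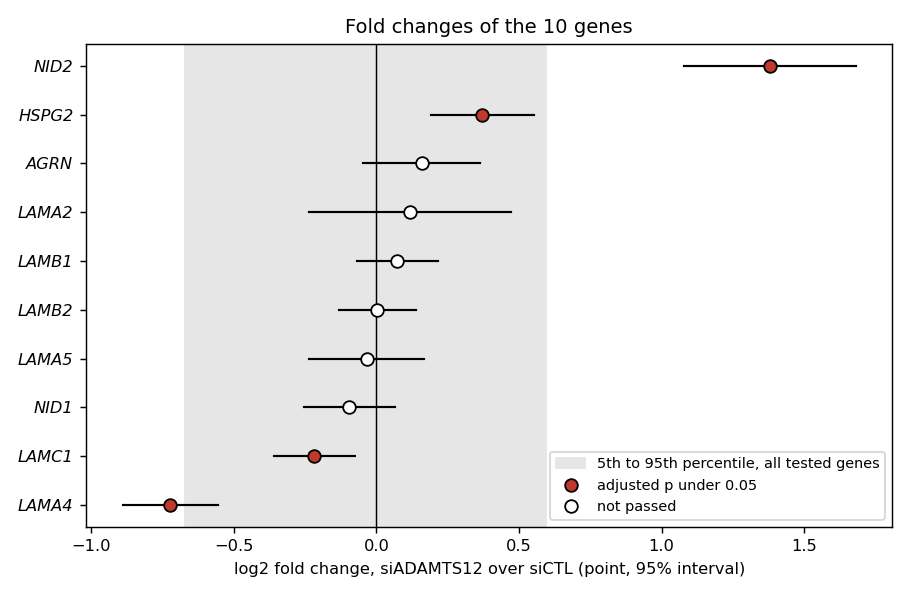
Log2 fold change of each of the 10 genes, siADAMTS12 over siCTL (horizontal axis), with its 95% interval from limma. Filled points passed an adjusted p of 0.05, and the grey band spans the 5th to 95th percentile of all tested genes (-0.67 to 0.59); NID2 lies above the band and LAMA4 just below it.

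The nidogens are paralogues that bind laminin and type IV collagen, and NID1 is the major one in most tissues. NID2 (ENSG00000087303, chr14:52004803-52069228, minus strand) had 1434, 1868 and 1335 normalized counts in the siADAMTS12 libraries, against 574, 700 and 503 in the siCTL libraries. The lowest siADAMTS12 library stood above the highest siCTL library. The mean was 1546 ± 284 with siADAMTS12 and 592 ± 99.8 with siCTL (SD, n = 3 each), and replicate 2 was the highest in both groups. The log2 fold change was 1.38 ± 0.14 (SE, adjusted p = 2.43e-05). Of all tested genes, 37 had a rise at least as large, NID2 included. NID1 (ENSG00000116962, chr1:235975830-236065162, minus strand) had 6601, 7693 and 6605 with siADAMTS12, against 7027, 7607 and 7652 with siCTL. Its groups overlapped, with a log2 fold change of -0.10 (95% interval -0.26 to 0.06).

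Exons of NID2 overlap 1915 bases of exons of RTRAF on the opposite strand in GENCODE 29, and those of HSPG2 overlap 2121 bases of LDLRAD2. RTRAF had 4716, 5235 and 4685 normalized counts with siADAMTS12 and 5815, 6277 and 6616 with siCTL, a log2 fold change of -0.35 (adjusted p = 0.00301). It was thus lower where NID2 was higher. LDLRAD2 had at most 2 in any library. Shorter overlaps joined LAMA5 with ADRM1 (244 bases) and LAMB1 with DLD (70 bases), and neither partner passed the test (adjusted p = 0.653 for ADRM1 and 0.879 for DLD). The library kit kept strand, but the strand setting of the counting is not given in the sources used here, and the part of RTRAF reads in the NID2 values was not tested.

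The promoters of both nidogens and of perlecan are printed because the nidogen paralogues had different values in these libraries and because NID2 and HSPG2 were the genes past the threshold upwards. Shown are the 250 bases before the RefSeq start (GRCh38.p14), with GC boxes, GGGCGG or CCGCCC on the strand shown, in capitals.
NID2, chr14:52069060-52069309, minus strand: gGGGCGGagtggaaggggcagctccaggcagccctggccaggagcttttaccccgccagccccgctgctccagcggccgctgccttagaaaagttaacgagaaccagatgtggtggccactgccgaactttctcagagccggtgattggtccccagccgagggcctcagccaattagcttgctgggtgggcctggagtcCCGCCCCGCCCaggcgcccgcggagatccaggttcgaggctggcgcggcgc
NID1, chr1:236065091-236065340, minus strand: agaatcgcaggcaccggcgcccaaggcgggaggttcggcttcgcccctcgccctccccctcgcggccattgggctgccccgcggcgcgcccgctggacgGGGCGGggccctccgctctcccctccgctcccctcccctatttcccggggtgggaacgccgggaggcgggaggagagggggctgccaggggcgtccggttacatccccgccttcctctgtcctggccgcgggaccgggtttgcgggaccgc
HSPG2, chr1:21937311-21937560, minus strand: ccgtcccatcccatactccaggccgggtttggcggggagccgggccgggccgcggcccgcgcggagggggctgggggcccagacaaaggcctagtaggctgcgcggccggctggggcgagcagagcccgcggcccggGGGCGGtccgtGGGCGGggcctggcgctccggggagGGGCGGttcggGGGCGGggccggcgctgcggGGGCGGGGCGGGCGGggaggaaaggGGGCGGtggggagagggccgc
In the window of 300 bases that runs to 50 bases past the start, the GC box occurred at 4 positions in NID2, 1 in NID1 and 10 in HSPG2, counting overlapping matches and both orientations. At least 1 was in 44.6% of 27305 such windows. Of the 9 genes with a window in the table (AGRN was not among them), none held TATAAA or its complement, found in 12.0% of windows, or the AP-1 motif TGANTCA, found in 7.76%. GC content was 69.0% in NID2, 74.7% in NID1 and 83.3% in HSPG2, where the median window had 58.3%. These are matches of letters, and binding at them was not measured.

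Perlecan, encoded by HSPG2 (ENSG00000142798, chr1:21822245-21937297, minus strand), is a very large proteoglycan that binds laminin, nidogen and growth factors. It had 6229, 7495 and 6059 normalized counts with siADAMTS12, against 5246, 5185 and 4802 with siCTL, without overlap. The mean was 6594 ± 785 with siADAMTS12 and 5078 ± 241 with siCTL (SD, n = 3 each), and the log2 fold change was 0.37 ± 0.08 (SE, adjusted p = 0.00598). Without siADAMTS12 replicate 2, the highest library, it was 0.28 (adjusted p = 0.0113). Agrin, encoded by AGRN (ENSG00000188157, chr1:1020123-1056118, plus strand), clusters receptors at the neuromuscular junction and links laminin to dystroglycan. It had 13349, 12826 and 13567 with siADAMTS12, against 11810, 13808 and 10242 with siCTL, so siCTL replicate 2 alone exceeded all siADAMTS12 libraries. Its log2 fold change of 0.16 did not pass (95% interval -0.05 to 0.36, adjusted p = 0.238). Without siCTL replicate 2 it was 0.27 (adjusted p = 0.0355), with quantile normalization 0.32 (0.0247) and with equal totals 0.28 (0.0455), each past the threshold.

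**Figure D3:**
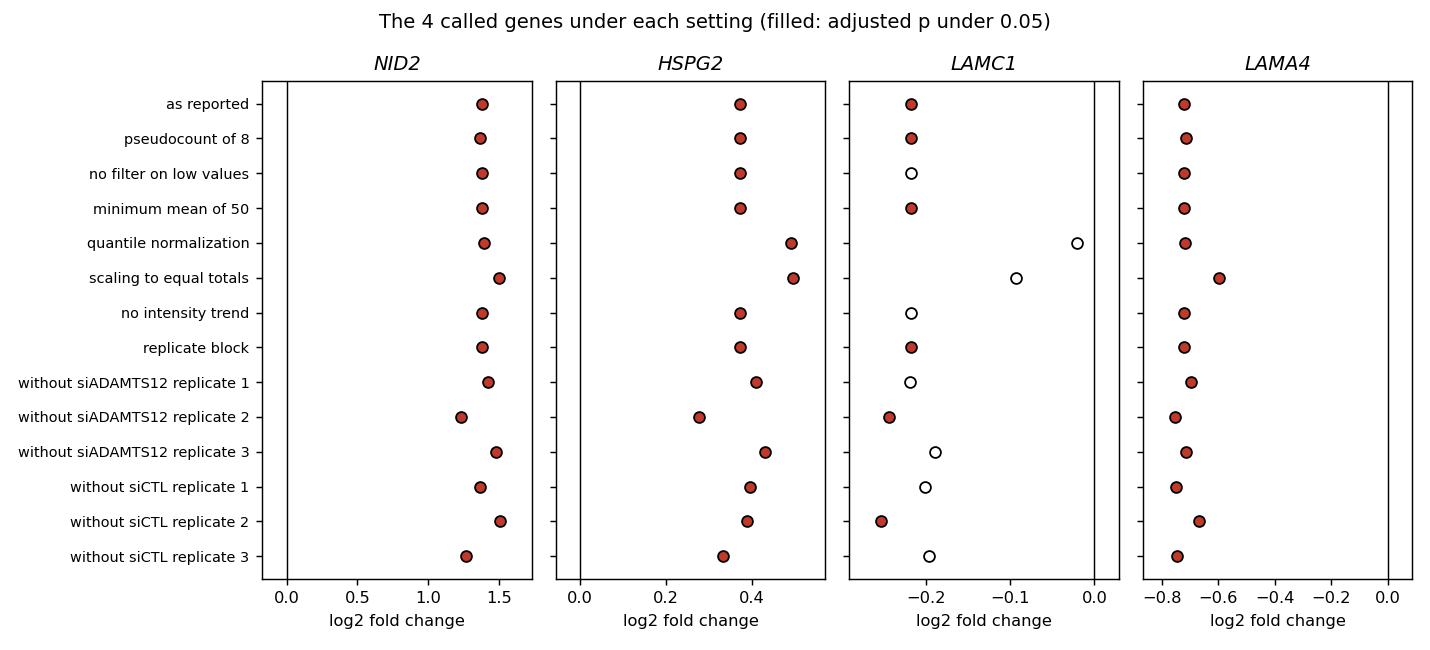
Log2 fold change, siADAMTS12 over siCTL (horizontal axes), of the 4 genes past the threshold as reported and under 13 other settings. Filled points have an adjusted p under 0.05; NID2, HSPG2 and LAMA4 stay filled in every row and LAMC1 does not.

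Levels were compared between genes per kb of the union of each gene's exons in GENCODE 29. In siADAMTS12 libraries LAMC1 was the highest at 2707 ± 102 normalized counts per kb, followed by LAMB2 (1797 ± 65.6), LAMB1 (1612 ± 108), AGRN (1231 ± 35.4), NID1 (1188 ± 107), HSPG2 (364 ± 43.3), NID2 (242 ± 44.4), LAMA5 (153 ± 21.4), LAMA4 (56.4 ± 2.34) and LAMA2 (24.9 ± 5.83). The libraries of AGRN and NID1 overlapped, and those of other neighbours in this order did not. In siCTL libraries the order began the same way with LAMC1 (3148 ± 135), LAMB2 (1792 ± 77.8) and LAMB1 (1530 ± 30.3). Then came NID1 (1267 ± 59.4), AGRN (1111 ± 166), HSPG2 (280 ± 13.3), LAMA5 (155 ± 6.24), LAMA4 (93.1 ± 6.09), NID2 (92.7 ± 15.6) and LAMA2 (22.6 ± 2.78), all SD with n = 3. Here NID1 overlapped with AGRN and LAMA4 with NID2. NID2 thus stood above LAMA5 and LAMA4 with siADAMTS12, and its libraries overlapped those of LAMA4 with siCTL. Scaled by the length of 1 transcript per gene instead, AGRN stood above NID1 in both groups without overlap, LAMA4 stood above NID2 with siCTL without overlap, and the libraries of LAMB1 and LAMB2 overlapped, with LAMB1 the higher.

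The 3 alpha chains of the set were scarce beside the beta and gamma chains, but the most abundant alpha chain lay outside the set. LAMA1, the alpha chain of the earliest embryonic basement membranes, had 9548, 10427 and 7865 normalized counts with siADAMTS12 and 9523, 9446 and 7906 with siCTL (log2 fold change 0.05, adjusted p = 0.786). Its exons overlap 1641 bases of exons of AP002409.1 on the opposite strand, and the part of AP002409.1 reads in the LAMA1 values was not tested. LAMA1 made up 69.7% ± 4.17 of the alpha chain level per kb with siADAMTS12 and 65.8% ± 1.62 with siCTL (SD, n = 3 each), over LAMA1 to LAMA5. This wider count of chains was chosen after the level of LAMA1 was seen. Within it LAMA4 held 6.41%, 6.56% and 7.33% in the siADAMTS12 libraries and 9.98%, 11.2% and 11.5% in the siCTL libraries, without overlap. LAMA5 held 18.5% ± 4.15 with siADAMTS12 and 18.2% ± 1.28 with siCTL, and LAMA2 held 2.95% ± 0.464 with siADAMTS12 and 2.64% ± 0.198 with siCTL.

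Sums of chains put these shares in proportion. The alpha chains together reached 836 ± 69.2 normalized counts per kb with siADAMTS12 and 857 ± 67.3 with siCTL (SD, n = 3 each). The beta chains LAMB1, LAMB2 and LAMB3 reached 3592 ± 166 with siADAMTS12 and 3555 ± 118 with siCTL. Both sums overlapped between the groups. The ratio of LAMC1 to these beta chains was 0.744, 0.753 and 0.764 with siADAMTS12 and 0.876, 0.841 and 0.942 with siCTL, without overlap. The ratio of LAMC1 to the alpha chains was 3.20, 3.12 and 3.42 with siADAMTS12 and 3.59, 3.35 and 4.15 with siCTL, and it overlapped. Ratios within each library do not move when a library is multiplied by a single factor, as with equal totals, but quantile normalization can change them. Both rest on the same LAMC1 values as the call above. Among nidogens, NID2 made up 16.6%, 18.2% and 15.6% of the level per kb with siADAMTS12, against 6.97%, 7.78% and 5.69% with siCTL. The LAMB2 share of LAMB1 plus LAMB2 was 52.7% ± 0.801 with siADAMTS12 and 53.9% ± 0.856 with siCTL, and its libraries overlapped.

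**Figure D4:**
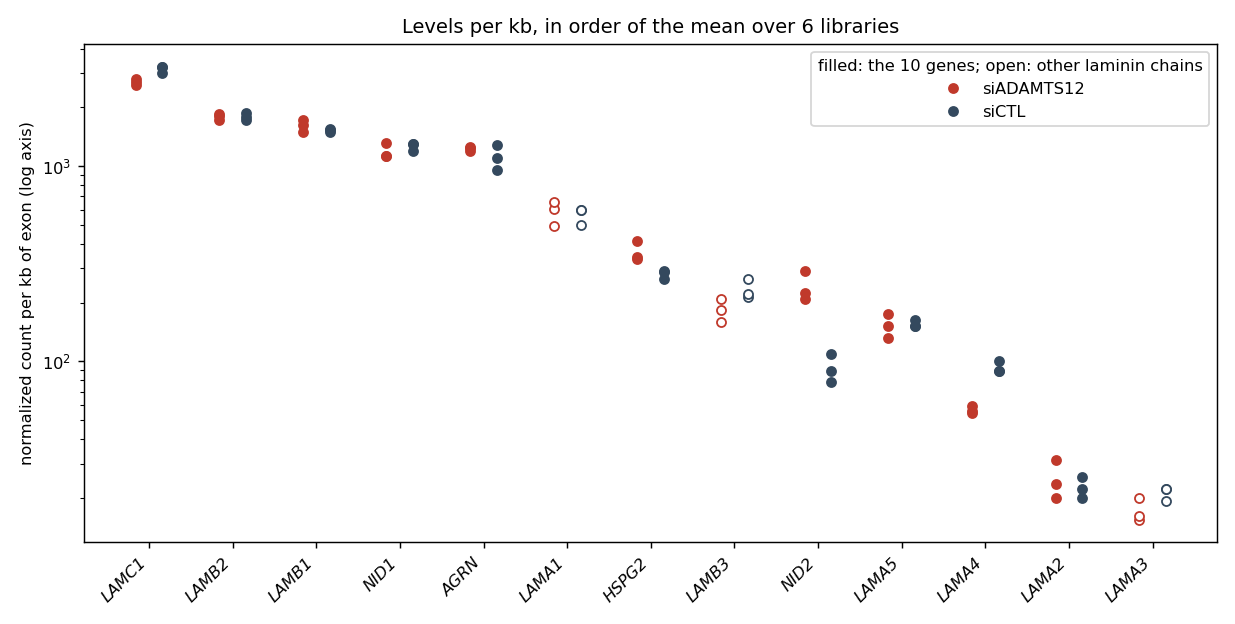
Normalized count per kb of exon (log axis) of the 10 genes (filled) and 3 other laminin chains (open), siADAMTS12 libraries left of siCTL libraries, 1 point per library. LAMC1, LAMB2 and LAMB1 lie highest, LAMA1 is the highest alpha chain, and NID2 shows the widest gap between the groups.

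**Figure D5:**
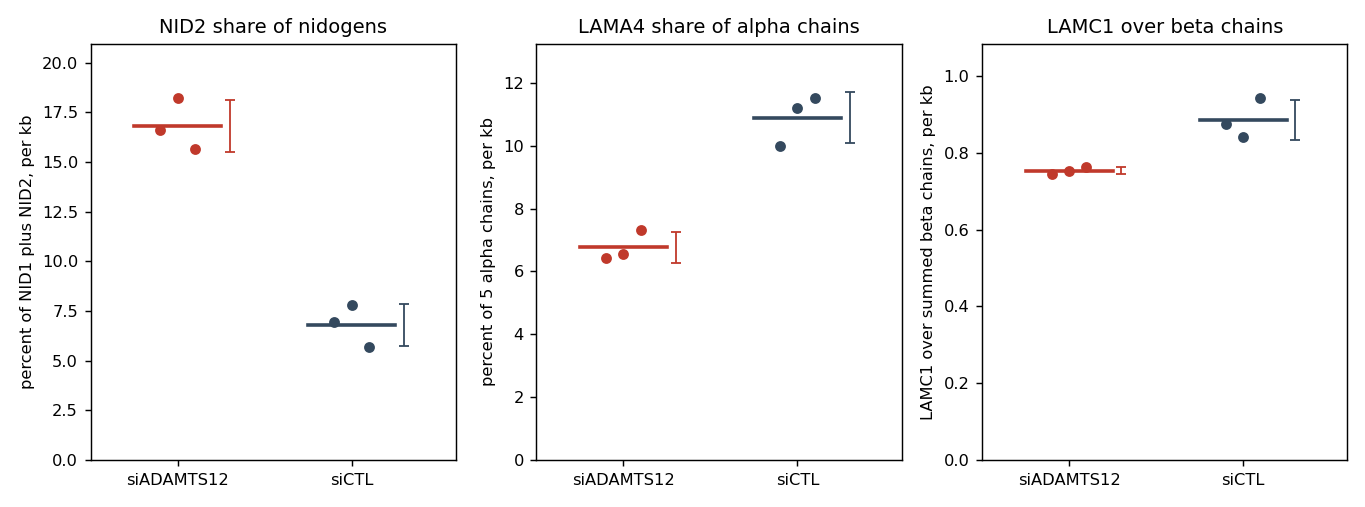
NID2 as a percentage of NID1 plus NID2, LAMA4 as a percentage of the 5 alpha chains, and the ratio of LAMC1 to the summed beta chains, all from levels per kb (vertical axes from 0). Points are libraries, bars means and whiskers the SD. In each panel the siADAMTS12 and siCTL libraries do not overlap. The ratio of LAMC1 to the alpha chains, which did overlap, is not drawn.

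Among laminin chains outside the set, LAMB3, a beta chain of epithelial anchoring laminin, was lower (860 ± 114 with siADAMTS12 and 1090 ± 127 with siCTL, log2 fold change -0.34, adjusted p = 0.0353). LAMB3 passed in 6 of 13 other settings. It did not pass with siADAMTS12 replicate 2 (adjusted p = 0.107) or 3 (0.0837) or siCTL replicate 1 (0.127) or 3 (0.0626) left out, without the filter (0.0634), without the intensity trend (0.116) or with equal totals (0.159). LAMA1 did not pass in any setting. LAMA3, at -0.31, did not pass (adjusted p = 0.0798), but it did with the replicate number as a block (0.0378) and without siADAMTS12 replicate 2 (0.0220). LAMB4 and LAMC3 fell below the filter. Of 8 collagens of basement membranes, 7 were tested and 1 was lower, beside 15.5% of all tested genes. This was COL4A4, at a log2 fold change of -0.45 (adjusted p = 0.0434). COL4A4 passed in 6 of 13 other settings. It did not pass with siADAMTS12 replicate 2 (0.101) or 3 (0.139) or siCTL replicate 1 (0.0823), 2 (0.0872) or 3 (0.122) left out, without the filter (0.0844) or with equal totals (0.111). The abundant network chains were at -0.12 (COL4A1, adjusted p = 0.248) and 0.03 (COL4A2, adjusted p = 0.824). COL4A2 passed after quantile normalization, at 0.25 (adjusted p = 0.0337). Of 22 further basement membrane components, 11 were tested, 5 were lower and 1 was higher, beside 15.5% and 11.5% of all tested genes. The number lower was 1 without the intensity trend, 2 with equal totals, 3 after quantile normalization, 2 without siCTL replicate 1, 3 without siCTL replicate 2 or siADAMTS12 replicate 3, and 6 with the replicate block, and the number higher was 2 after quantile normalization and without siADAMTS12 replicate 3. NTN4, a netrin that disrupts laminin networks by binding gamma chains, was at -0.69 (664 ± 54.2 with siADAMTS12 and 1068 ± 14.7 with siCTL, adjusted p = 6.48e-05). FBLN1 and FBLN2, fibulins that bind nidogen and laminin, were at -0.54 and -0.30 (adjusted p = 0.0126 and 0.0168), and EGFLAM (pikachurin), a dystroglycan ligand, at 0.63 (1132 ± 49.4 with siADAMTS12 and 733 ± 52.5 with siCTL, adjusted p = 0.000118). NTN4 and EGFLAM passed in all 13 other settings. FBLN1 did not pass without the intensity trend (0.0549). FBLN2 passed in 7 of 13, and did not with siADAMTS12 replicate 3 (0.0760) or siCTL replicate 1 (0.0545) or 2 (0.0699) left out, after quantile normalization (0.0964), with equal totals (0.119) or without the trend (0.0796).

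Of 20 receptors of the 10 gene products, 19 were tested, 10 were lower and 2 higher, beside 15.5% and 11.5% of all tested genes. The median log2 fold change of these receptors was -0.37, beside 0.005 over all tested genes. The number lower was 9 after quantile normalization, with equal totals, without the intensity trend and without siCTL replicate 3. It was 11 without siADAMTS12 replicate 1 or 2 or siCTL replicate 1, and 12 with the replicate block. The list shares members with the adhesion genes that led earlier results of these data, so it is no independent evidence of direction. ITGB1, the beta subunit of most laminin receptors, had 41122 ± 1618 with siADAMTS12 and 69995 ± 4665 with siCTL (-0.77, adjusted p = 2.43e-05). ITGA3, its partner for laminins with LAMA3 or LAMA5, was at -0.71 (adjusted p = 2.36e-05), ITGB3 at -0.79 (1.81e-05) and the collagen and laminin receptor subunit ITGA2 at -2.03 (2.65e-06). The glypican GPC1 (0.61) and the syndecan SDC2 (0.45) were the higher genes, named after their values were seen. Dystroglycan (DAG1) was at -0.26 and did not pass (adjusted p = 0.0584), but it did with the replicate block (0.00268), without siADAMTS12 replicate 2 (0.00712) and without siCTL replicate 1 (0.0455).

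Among enzymes that glycosylate dystroglycan, which lets it bind laminin, perlecan and agrin, POMGNT2, POMT2 and DPM3 were higher, at 0.39, 0.44 and 0.42 (adjusted p = 0.00113, 0.00170 and 0.0225). DPM3 did not pass with siADAMTS12 replicate 2 (0.0688) or 3 (0.0583) or siCTL replicate 2 (0.0590) or 3 (0.0703) left out. Of 28 enzymes building or editing heparan sulfate, 20 were tested, 4 were lower and 2 higher, beside 15.5% and 11.5% of all tested genes. The number higher was 5 with equal totals and 1 without the intensity trend or without siCTL replicate 1 or 3. The sulfotransferase HS2ST1 was at -0.67 (adjusted p = 0.00136), the epimerase GLCE at -0.39 (0.000556), the xylose kinase FAM20B at -0.35 (0.00208) and the glycosyltransferase EXTL3 at 0.51 (0.000296). Of 14 proteases acting on basement membranes, 12 were tested, 7 were lower and 1 was higher, beside 15.5% and 11.5% of all tested genes. The number lower was 5 after quantile normalization, with equal totals and without the intensity trend. It was 6 without siADAMTS12 replicate 3 or siCTL replicate 1 or 3, and 8 with the replicate block. The plasminogen activator PLAT was at -1.57 (adjusted p = 5.00e-08), the gelatinase MMP9 at -1.88 (1.19e-05), the tolloid protease TLL1 at -0.92 (1.11e-05) and the membrane protease MMP14 at -0.53 (7.98e-05). The higher gene was PRSS12 (neurotrypsin), a protease known to cleave agrin, at 0.26 (adjusted p = 0.0483). PRSS12 passed in 7 of 13 other settings. It did not pass with siADAMTS12 replicate 2 (0.140) or 3 (0.0959) or siCTL replicate 1 (0.168) or 2 (0.0762) left out, without the filter (0.0795) or without the trend (0.116).

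The profiles most like that of NID2, by the root-mean-square difference of centred log2 values over the 6 libraries, were those of CXADR (0.134), ANK3 (0.151) and SNN (0.166). CXADR had 156, 203 and 160 normalized counts with siADAMTS12 and 73, 84 and 71 with siCTL. Closest to LAMA4 were CTSC (0.0208), ZNF253 (0.0305) and BST1 (0.0380), and CTSC had 4141, 4398 and 4180 with siADAMTS12 and 6732, 7409 and 6933 with siCTL. The measure includes the difference between the groups, so genes with a difference of like size rank high.

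Across the whole series, the deposited values summed to between 30678468 and 31415206 per siADAMTS12 library and between 33576945 and 34072515 per siCTL library. Pearson correlation of log2 values over genes ran from 0.991 to 0.994 for libraries of the same group and from 0.985 to 0.988 for libraries of different groups. Of 14 stellate cell and fibroblast markers, 13 had a mean of at least 10 (all but DES). Of these, 7 were lower and 0 higher, beside 15.5% and 11.5% of all tested genes. The summed level of the 14 markers ran from 493001 to 571300 with siADAMTS12 and from 634876 to 691784 with siCTL. Of 8 endothelial markers, 3 had such a mean (VWF, KDR and TEK), and of these 1 was lower and 0 higher. The sum of the 8 ran from 188 to 229 with siADAMTS12 and from 289 to 314 with siCTL, and STAB2, LYVE1 and CLEC4G were listed at 0. The part of these marker differences in the values of LAMA4 and LAMC1 was not tested. Of 9 hepatocyte markers 1 had such a mean (sums 23 to 29 with siADAMTS12 and 19 to 20 with siCTL), of 6 epithelial markers 3 (1841 to 2155 with siADAMTS12 and 1983 to 2314 with siCTL), and of 7 macrophage and leukocyte markers 2 (115 to 148 with siADAMTS12 and 120 to 146 with siCTL).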

How the data were processed

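Messenger RNA of 3 siADAMTS12 and 3 siCTL libraries of LX-2 cells was prepared with a stranded kit and sequenced, per the labels' protocols. The authors deposited normalized counts as whole numbers, a score and not raw counts, and per the submitters' processing notes the tools were DESeq2, STAR and HTSeq on GRCh38, without versions. The annotation and whether counting used strand are not stated there. Median-of-ratios factors of the 6 columns lay between 1.003 and 1.007. No count model was fitted, because the values are not raw counts. Read depth is not given by these values, and no counting interval or floor is stated.

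Genes with a mean of at least 10 were kept (15637). Group differences in log2(value + 1) over the 6 libraries were tested with limma 3.58.1 (R 4.3.3), with no covariate and an intensity trend, with 2-sided p-values adjusted by the Benjamini-Hochberg method over all kept genes and a threshold of 0.05. The fit was also run on simulated data, with an outcome not reported here. Those libraries were drawn independently, so the run does not check the fit where libraries of the same replicate number are correlated. Exact permutation tests used scipy 1.17.1 in Python 3.11.15. Exon lengths, 3′ UTRs of at least 30 bases (principal APPRIS transcript, then basic set, then longest UTR) and overlaps came from GENCODE 29, and promoters from RefSeq tables on GRCh38.p14.

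The genes and the 7 lists of related genes were chosen with earlier results of these data known. All 10 genes are named, and from each list up to 4 genes past the threshold with the smallest adjusted p, or 1 where none passed. Named outside this rule are LAMA1, LAMA3, LAMB4, LAMC3, COL4A1, COL4A2, DAG1, GPC1, SDC2 and PRSS12. Some genes of these lists are not reported here. Likeness was sought among genes with a mean of at least 50. Deviations from the group mean were correlated between libraries of the same replicate number (0.37, 0.13 and 0.13 for replicates 1, 2 and 3, against -0.19 to 0.06 for different numbers), which met the rule set for pairing (each above 0.1), and a fit with the number as a block was run. Unless the block is named, values come from the fit without it, including the shares of 15.5% lower and 11.5% higher. Other settings tried were a pseudocount of 8, no filter, a minimum mean of 50, quantile normalization, equal totals, no trend, each library left out, and 1 transcript per gene for lengths.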

Additional observations from a re-analysis of the deposited data

How the results depend on the processing

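Under 13 other settings, NID2, HSPG2 and LAMA4 kept their direction and stayed past the threshold in each, with log2 fold changes from 1.24 to 1.51, 0.28 to 0.50 and -0.75 to -0.60. LAMC1 kept its direction in all 13 and passed in 5. The number of the 10 genes that were lower was 1 in place of 2 without a filter on low values, without the intensity trend, after quantile normalization and with equal totals, and 1 to 2 with a library left out. The number that were higher was 4 in place of 2 after quantile normalization and with equal totals, which added LAMB1 and AGRN, and 2 to 3 with a library left out. Equal totals moved the median of all tested genes to 0.13. With that shift, 1546 genes were lower and 3868 higher (71.4% of calls higher, against 42.6% as reported, and 51.1% after quantile normalization). In the replicate block fit 2 of the 10 genes were lower and 2 higher, so no call among them changed, and 3059 of all tested genes were lower and 2423 higher. Counts past the threshold in the lists of related genes, taken in each direction, stayed within 1.5 times the reported count in 149 comparisons with another setting and moved further in 33. Beyond the 10 genes, the replicate block added calls for LAMA3 and DAG1 among the list genes named and ended none. With the length of 1 transcript per gene, NID2 made up 21.2% of nidogens with siADAMTS12 and 8.85% with siCTL, and LAMA4 7.81% of alpha chains with siADAMTS12 and 12.5% with siCTL, without overlap between the groups. A 6-base in place of a 7-base seed match was in 3 genes in place of 1, and the longest 3′ UTR gave 1. Of the 3 genes most like NID2 and LAMA4, 2 and 1 were shared after quantile normalization. The cause of the changes in LAMC1, LAMB1 and AGRN was not tested.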
